A study of Homo sapiens with 12 samples.

Results

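The genes described are the pair of hypoxia-inducible factor subunits HIF1A and EPAS1 and 8 of their known target genes, VEGFA, ADM, STC1, ANKRD37, BNIP3, BNIP3L, NDRG1 and CA9. They were chosen by name, and all 10 were found among the 61209 gene names of the deposited count table and passed its low-count filter. Messenger RNA was sequenced in 12 libraries, 3 in each of 4 groups, of the established human melanoma cell line A375. The groups were control cells with glucose (Ctrl), control cells starved of glucose for 5 h (Ctrl;-Glucose), OGDH-depleted cells with glucose (OGDH KO) and OGDH-depleted cells starved likewise (OGDH KO; -Glucose). OGDH is the gene for the 2-oxoglutarate-binding subunit of a dehydrogenase complex in the tricarboxylic acid cycle. The titles say KO and the series text says knockdown, and how the cells were depleted, or whether they are a single clone, is not given in the sources used here.

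Hypoxia-inducible factors are dimers of an oxygen-labile alpha subunit, such as those encoded by HIF1A and EPAS1 (HIF-2 alpha), and the stable subunit ARNT. Prolyl hydroxylases (EGLN genes), which use oxygen and 2-oxoglutarate, mark the alpha subunits for destruction through the VHL ubiquitin ligase. Without hydroxylation the alpha protein accumulates and binds short DNA elements with the core ACGTG or GCGTG near genes for glycolysis, blood vessel growth, mitophagy and pH control. On build hg38 the gene models of HIF1A lie at chr14:61695513-61748259, EPAS1 at chr2:46293667-46386697, VEGFA at chr6:43770184-43786487, ADM at chr11:10305073-10307397 and STC1 at chr8:23841929-23854806. ANKRD37 lies at chr4:185396021-185400628, BNIP3 at chr10:131967684-131981967, BNIP3L at chr8:26383054-26505636, NDRG1 at chr8:133237175-133302022 and CA9 at chr9:35673928-35681159. The control by hydroxylation acts on the protein, which was not measured here, and several of the targets are also known to respond to other stresses.

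The libraries held 21556273 to 25546615 counted fragments. OGDH was at 142 to 166 CPM (counts relative to the scaled library size) in fed control cells and 36.3 to 45.1 CPM in fed OGDH-depleted cells, and at 129 to 133 and 32.3 to 33.9 CPM after starvation, with no overlap between control and depleted libraries. The log2 difference was -1.96 with glucose (adjusted p = 8.6e-06) and -1.99 without (adjusted p = 3.5e-07). The melanoma marker SOX10 averaged 348 to 633 CPM over the groups, CSPG4 131 to 202 CPM and MITF 25.9 to 44.2 CPM, whereas the pigment gene TYR was at or near 0. The other listed markers, PMEL, MLANA, DCT, TYRP1, S100B and S100A1, averaged at most 2.57 CPM in any group. Most of the list's sum therefore came from SOX10 and CSPG4. The 10 lineage markers summed to 860 CPM in fed and 530.4 CPM in starved control cells, and to 848 and 754 CPM in depleted cells. Of the 5 epithelial markers EPCAM and CDH1 were at most 0.182 and 0.0834 CPM in a group mean, while KRT8 and KRT18, also made by other cells, brought the list's sum to 378 CPM in fed and 840.0 CPM in starved control cells, and to 365 and 425 CPM in depleted cells. KRT18 went from 296 ± 2.28 to 743 ± 19.2 CPM in control cells (1.33, adjusted p = 4.6e-07) and from 296 ± 12.02 to 360.2 ± 22.5 CPM in depleted cells (0.28, adjusted p = 0.060), with the 10 genes; its part in their levels was not tested. Endothelial and blood markers summed to at most 4.54 and 1.81 CPM in a group.

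Libraries of 1 group differed in how counts varied with base composition and in their share of mitochondrial transcripts. For each library the log2 level of 10561 genes, as deviation from the group mean, was regressed on the GC content of its transcripts; this GC slope is given per 10 percentage points of GC. It was -0.33 in fed control replicate 2 against 0.19 and 0.13 in replicates 1 and 3, and 0.28 in starved control replicate 3 against -0.12 and -0.16 in the other two. In starved depleted cells it was 0.19, 0.04 and -0.23, and in fed depleted cells all 3 slopes lay within 0.01 of 0. The mitochondrial share of counts was 14.6% in fed control replicate 2 against 4.97% and 6.35% in replicates 1 and 3, and 4.11% in starved control replicate 3 against 14.4% and 13.2%. It was 3.06%, 5.12% and 9.71% in starved and 5.16% to 6.98% in fed depleted libraries. HIF1A transcripts average 41.0% GC, lower than most tested genes, STC1 43.9% and BNIP3L 45.5%, whereas the other 7 genes lie between 53.9% (BNIP3) and 59.9% (ADM). Within fed control, starved control and starved depleted cells, HIF1A was highest in the library with the lowest slope (replicates 2, 2 and 3), and its low and high libraries were also those with low and high mitochondrial shares, except that starved control replicates 1 and 2 were in the opposite order. VEGFA was highest in the library with the highest slope (replicates 1, 3 and 1). The part of base composition or mitochondrial share in the group differences was not tested, but each result was also computed with the slope as a covariate and without the 3 libraries that stood farthest from their groups (fed control 2, starved control 3 and starved depleted 3). Both settings lower the spread by construction, and both called more of all genes in every contrast.

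**Figure D1:**
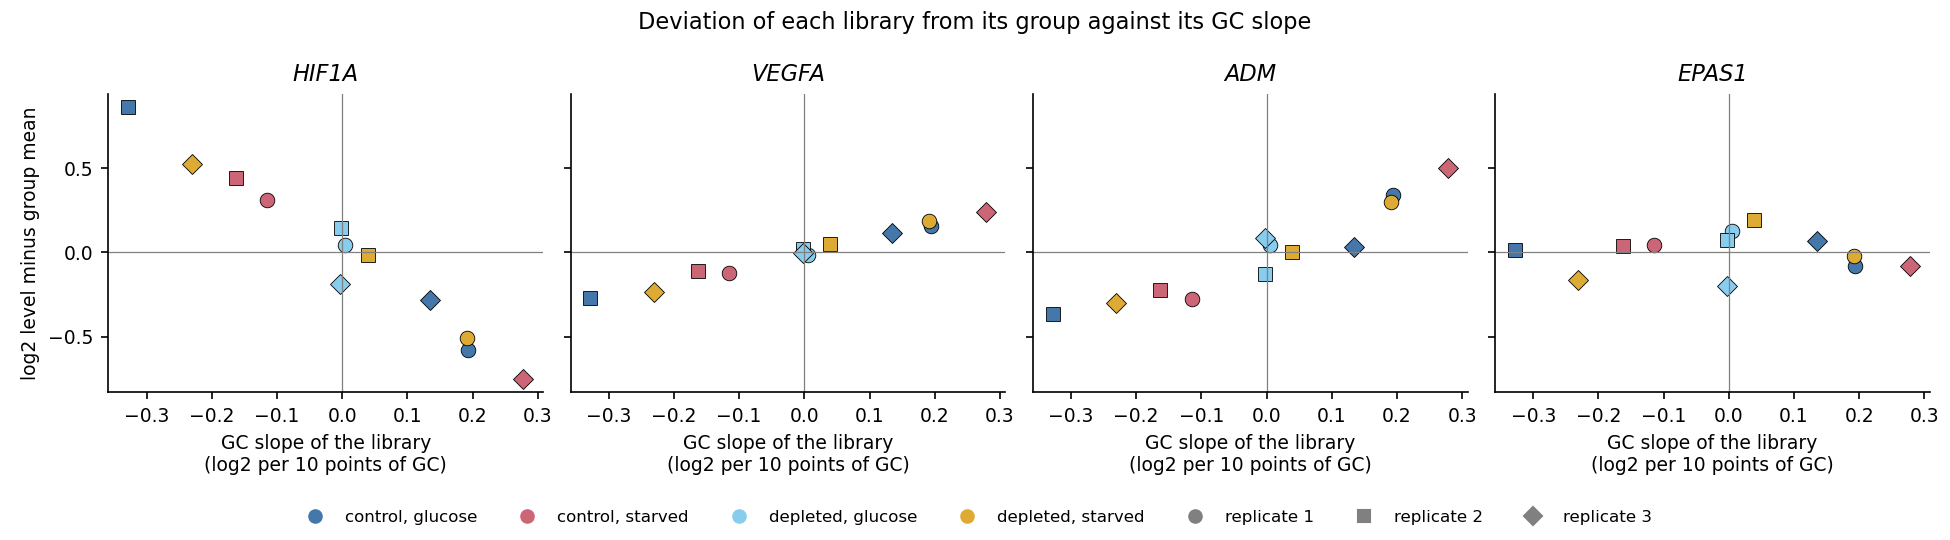
Deviation of each of the 12 libraries from its group mean (y axis, log2 level) against the GC slope of the library (x axis, log2 per 10 percentage points of GC) for HIF1A, VEGFA, ADM and EPAS1; colours are groups and shapes replicates. HIF1A falls along the slope by up to 0.86 from its group mean, VEGFA and ADM rise along it, and EPAS1 stays within 0.20 of its group mean.

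Starvation of control cells raised 8 of the 10 genes, starvation of depleted cells raised 2, and depletion lowered 6 in starved cells. In starved control cells 34.5% of the 18526 genes tested were called by edgeR at an adjusted p under 0.05, 3151 of them higher and 3249 lower. The median log2 fold change there was 1.46 over the 10 genes against -0.02 over all. For starvation of depleted cells 7.18% of all genes were called, 448 higher and 882 lower, and the median was 0.44 over the 10 against 0.02 over all. Depletion with glucose gave 0 calls among the 10 with edgeR, 2 at an unadjusted p under 0.05 and 1 with DESeq2, and 3.04% of all genes were called. Depletion without glucose lowered 6 of 10, where 28.7% of all genes were called, 2531 higher and 2779 lower, with a median of -0.68 against 0.004. The log2 fold change on starvation was lower in depleted than in control cells, tested as the interaction, for 5 of 10. For VEGFA it had the opposite sign in depleted cells (-0.43, not past the threshold). In the interaction 17.3% of all genes were called, 1537 higher and 1659 lower. These comparisons share groups of libraries with each other.

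Fed and starved libraries did not overlap for 8 of the 10 genes in control cells, against 40.2% of all tested genes, and for 7 in depleted cells, against 39.7%. Control and depleted libraries did not overlap for 2 of the 10 with glucose, against 27.0% of all, and for 6 without, against 38.7%.

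The count of 2 in depleted cells depended on the fit. It was 5 with DESeq2, 7 with the GC slope covariate and 6 without the 3 outlying libraries, and VEGFA was called lower in the latter pair of fits. All genes called in this contrast went from 1330 to 2031, 9013 and 3313 of those tested under the same settings, so the larger counts stand beside larger backgrounds. Leaving out 1 library gave a count of 1 for each of 5 libraries (fed depleted 1, 2 or 3, starved depleted 2 or 3). All genes called fell there from 1330 to 629, 631, 639, 583 and 607 in that order. The count was 5 without fed control replicate 2 or starved control replicate 3, where all genes called rose to 1959 and 1675. These libraries are not among those compared but enter the estimate of spread. The falls and rises of the count thus went with those of all genes called.

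**Figure D2:**
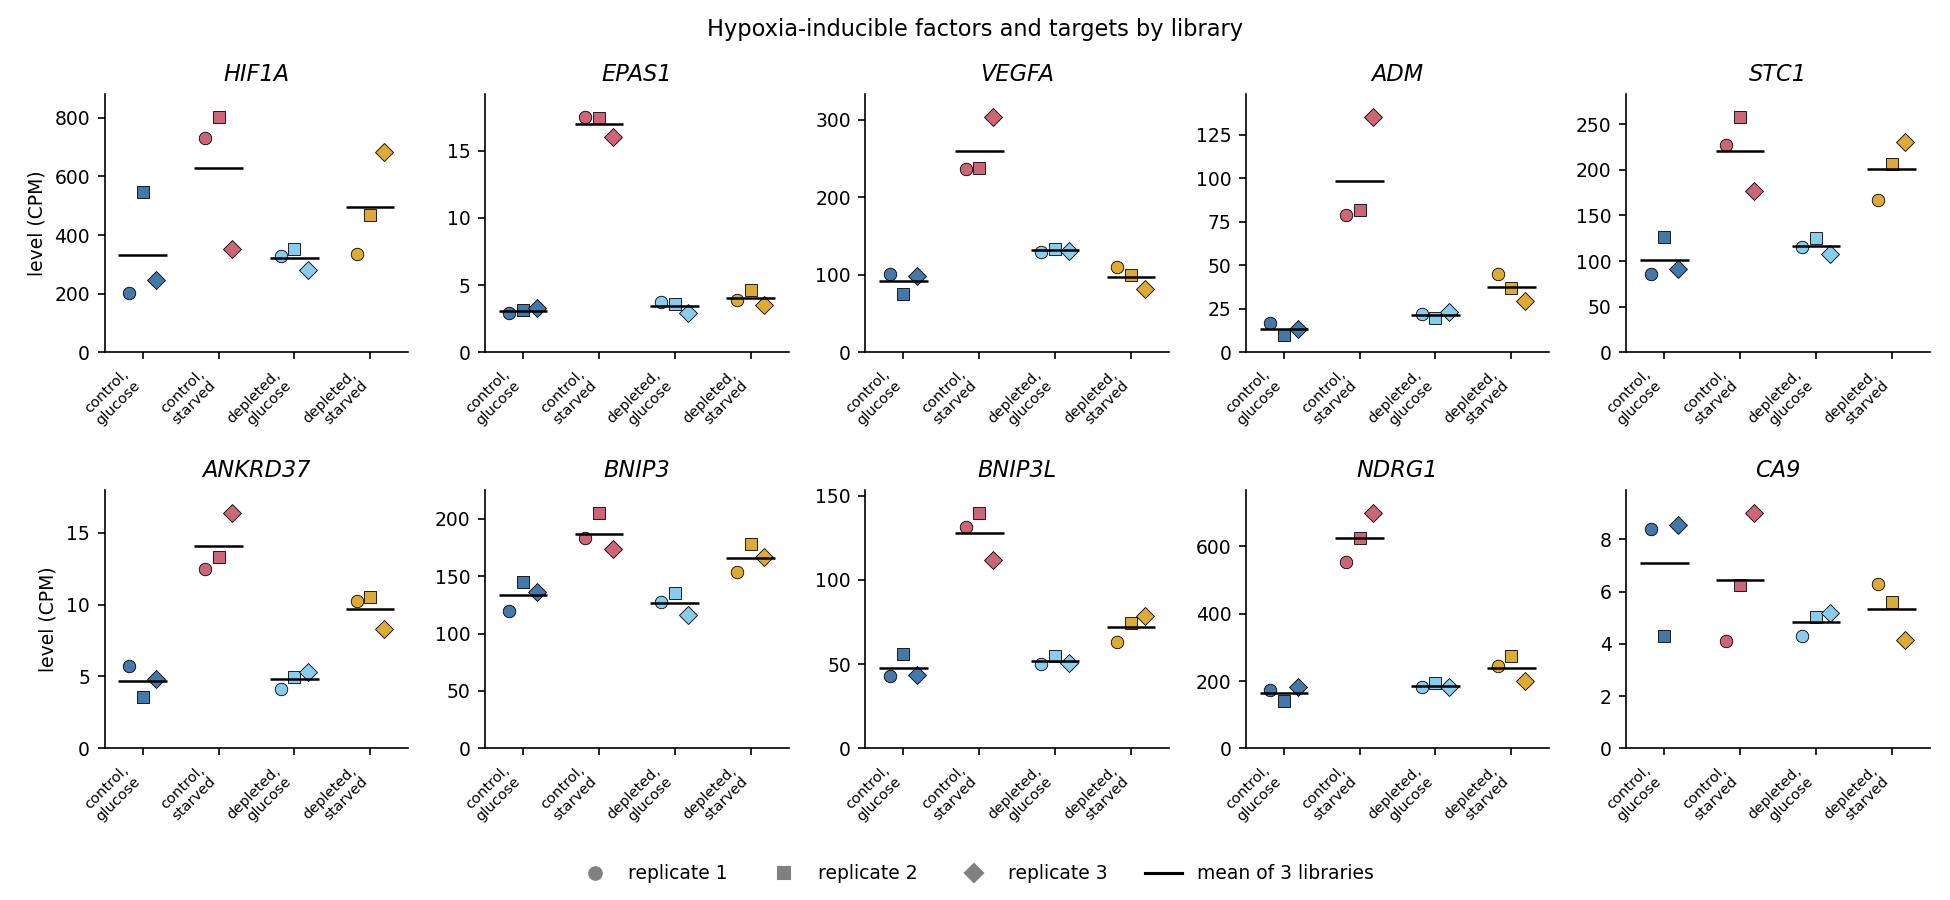
Levels of the 10 genes in each of the 12 libraries (y axis, CPM, from 0), by group on the x axis; shapes mark replicates and bars the mean of 3 libraries. For EPAS1, VEGFA, ADM, ANKRD37, BNIP3L and NDRG1 all 3 starved control libraries lie above all other 9, whereas for CA9 the groups overlap.

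EPAS1, the alpha subunit HIF-2 alpha, changed most clearly of the pair of factors. It stood at 2.89, 3.11 and 3.27 CPM in fed control cells and at 17.5, 17.5 and 15.99 CPM after starvation. Depleted cells held 3.76, 3.62 and 2.91 CPM with glucose and at 3.92, 4.62 and 3.51 CPM without. The 3 starved control libraries were thus alone at the high level, and the other 3 groups lay close together. The rise in control cells was 5.49-fold (log2 fold change 2.46, SE 0.14, adjusted p = 2.9e-07). In depleted cells the log2 difference was 0.23 (SE 0.14, adjusted p = 0.34, 95% interval -0.09 to 0.55). The interaction was -2.23 (SE 0.20, adjusted p = 3.0e-05), and starved depleted cells differed from starved control cells by -2.08 on the log2 scale (SE 0.14, adjusted p = 1.6e-06).

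HIF1A, the alpha subunit HIF-1 alpha, was far more abundant but varied widely within groups. Fed control libraries 1, 2 and 3 held 201, 547 and 248 CPM and starved control libraries 731, 803 and 351 CPM. Depleted cells held 330.1, 354 and 280.2 CPM with glucose and 334, 470 and 684 CPM without. The fed and starved groups overlapped in control cells through replicate 2 of the fed and replicate 3 of the starved group. Starvation of control cells gave a log2 fold change of 0.92 (SE 0.40, adjusted p = 0.098), not past the threshold with edgeR, although DESeq2 put it at an adjusted p of 0.049. With the GC slope as covariate it was 0.97 (SE 0.07, adjusted p = 7.6e-09), and it was 1.77 when the 3 outlying libraries were left out (adjusted p = 2.9e-06). Both settings lower the spread by construction, and all genes called in this contrast went from 6400 to 11433 and 11364. The HIF1A value also passed with no low-count filter (0.90, adjusted p = 0.011), with a GC bin offset (0.81, adjusted p = 0.030), without fed control replicate 2 (1.48, adjusted p = 0.0078) or without starved control replicate 3 (1.21, adjusted p = 0.028).

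In depleted cells HIF1A stood 0.63 higher after starvation on the log2 scale (SE 0.40, adjusted p = 0.35), with 0.57 under the slope covariate (adjusted p = 1.1e-05) and 0.30 (adjusted p = 0.17) when the outlying libraries were left out. The interaction was -0.30 (SE 0.56, adjusted p = 0.79, 95% interval -1.53 to 0.93). With the covariate it was -0.41 (adjusted p = 0.0037), and leaving out the outlying libraries made it -1.47 (adjusted p = 0.00027), so whether HIF1A responded less in depleted cells rested on the treatment of those libraries. Depletion with glucose gave -0.05 (adjusted p = 0.97), a value that turned to 0.51 (adjusted p = 0.046) without the outlying libraries. Per kilobase of exon, HIF1A stood at 64.4 ± 36.5 FPKM (SD, n = 3) and EPAS1 at 0.424 ± 0.0256 FPKM in fed control cells. After starvation the same cells held 122 ± 47.1 FPKM of HIF1A and 2.33 ± 0.119 FPKM of EPAS1, so the order of the pair was the same at both times.

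Of the partners and regulators of the alpha subunits, 13 of the 16 listed were tested. In starved control cells 1 rose and 2 fell (median log2 fold change -0.03), where 34.5% of all genes were called. CITED2, which competes with the alpha subunits for the coactivators EP300 and CREBBP and is itself a known target, went from 75.3 ± 22.3 to 701 ± 225 CPM (3.22, SE 0.29, adjusted p = 7.9e-06). ARNT2, a relative of the dimer partner ARNT, fell from 9.82 ± 0.689 to 4.34 ± 0.690 CPM (-1.18, adjusted p = 0.00012), and HIF1AN, the asparagine hydroxylase that blocks coactivator binding, by 0.30 (adjusted p = 0.028). ARNT itself stood at 0.06, EGLN1, the main prolyl hydroxylase, at -0.01 and VHL at -0.23, none past the threshold.

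In starved depleted cells CITED2 rose from 81.2 ± 10.6 to 263 ± 56.4 CPM (1.70, adjusted p = 0.0042), less than in control cells (interaction -1.52, adjusted p = 0.017). ARNT2 stood at 9.81 ± 0.615 and 10.7 ± 1.67 CPM there (0.13, adjusted p = 0.60; interaction 1.31, adjusted p = 0.0014). EGLN2, another prolyl hydroxylase, fell from 6.41 ± 0.702 to 2.54 ± 0.331 CPM (-1.33, adjusted p = 0.00059), whereas its value in control cells was -0.23 (adjusted p = 0.26; interaction -1.10, adjusted p = 0.0048). Depletion with glucose gave 0 calls in this list with edgeR, where 3.04% of all genes were called. It gave 1 at an unadjusted p under 0.05 and 0 with DESeq2.

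VEGFA encodes the main growth factor of blood vessels. It stood at 101, 75.2 and 98.7 CPM in fed control cells and at 236, 238 and 303 CPM after starvation. Depleted cells held 130, 133 and 131 CPM with glucose and 110, 100.01 and 81.9 CPM without. The 3 starved control libraries therefore all lay above the 3 fed ones, and the 3 starved depleted libraries all lay below the 3 fed depleted ones. The fold was 2.82 in control cells (1.498, SE 0.15, adjusted p = 1.9e-05). In depleted cells the log2 difference of -0.43 (SE 0.15) missed the threshold (adjusted p = 0.10, 95% interval -0.76 to -0.11), and it passed with the slope covariate (-0.44, adjusted p = 3.7e-07), with only the compared groups fitted (-0.45, adjusted p = 0.045) and with the outlying libraries left out (-0.35, adjusted p = 0.0033). The interaction was -1.93 (SE 0.21, adjusted p = 9.7e-05). In fed cells VEGFA stood 0.52 higher after depletion (SE 0.15, adjusted p = 0.098), a difference that passed with DESeq2 (adjusted p = 0.031) and with the covariate (0.53, adjusted p = 1.3e-07). All genes called there went from 563 to 1157 with DESeq2 and 6445 with the covariate. For starvation in depleted cells they went from 1330 to 9013 with the covariate and 3313 without the outlying libraries.

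ADM encodes adrenomedullin, a secreted vasodilator peptide. Its levels were 16.6, 9.95 and 13.3 CPM in fed and 78.7, 81.8 and 135 CPM in starved control cells. In depleted cells they were 22.3, 19.7 and 23.0 CPM with glucose and 45.3, 36.8 and 29.7 CPM without. All starved libraries of each kind lay above the fed ones, and no starved depleted library reached the lowest starved control library. The rise was 7.43-fold in control cells (2.89, SE 0.26, adjusted p = 6.8e-06), the largest among the 10 genes. The value in depleted cells was 0.78 (SE 0.24, adjusted p = 0.076; 0.031 with DESeq2 and 9.9e-07 with the slope covariate), and the interaction was -2.11 (SE 0.34, adjusted p = 0.0015). Depletion in fed cells gave 0.71 (SE 0.24, adjusted p = 0.17; 7.0e-06 with the covariate). With the covariate all genes called went from 1330 to 9013 for starvation in depleted cells and from 563 to 6445 for depletion with glucose.

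STC1 encodes stanniocalcin, a secreted glycoprotein that acts on calcium and phosphate handling. It stood at 85.6, 126 and 91.4 CPM in fed and 227, 258 and 177 CPM in starved control cells. Depleted cells held 116, 125 and 108 CPM with glucose and 167, 207 and 230.2 CPM without. Unlike VEGFA and ADM, its starved groups overlapped each other. The rise was 2.18-fold in control cells (1.13, SE 0.18, adjusted p = 0.00059) and 1.73-fold in depleted cells (0.79, SE 0.18, adjusted p = 0.023). The latter call was lost without fed depleted replicate 1, 2 or 3 or starved depleted replicate 2 or 3 (adjusted p = 0.063 to 0.097). All genes called in that contrast fell from 1330 to between 583 and 639 under these omissions. The interaction was -0.33 (SE 0.25, adjusted p = 0.43, 95% interval -0.89 to 0.22), but it passed with the slope covariate (-0.35, adjusted p = 0.0024) and when the outlying libraries were left out (-0.78, adjusted p = 0.0015). With these settings all genes called in the interaction went from 3196 to 8655 and 8077.

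Of 10 family relatives of the genes 9 were tested; 3 rose and 4 fell in starved control cells (median -1.04), where 34.5% of all genes were called. NDRG2 fell from 2.61 ± 0.212 to 0.922 ± 0.285 CPM (-1.49, adjusted p = 0.00022) and NDRG4 from 13.9 ± 3.52 to 5.23 ± 0.836 CPM (-1.40, adjusted p = 0.00033), opposite to NDRG1, and ANKRD9, named after its values were seen, from 9.84 ± 3.58 to 3.49 ± 1.502 CPM (-1.48, adjusted p = 0.0095). In starved depleted cells 0 relatives rose and 1 fell, against 7.18% of all genes called. STC2, the relative of STC1, went from 38.7 ± 4.26 to 199 ± 29.4 CPM in control cells (2.37, adjusted p = 1.7e-07) and stood at 107 ± 3.26 and 101 ± 8.25 CPM in depleted cells (-0.08, adjusted p = 0.70). ADM2, the relative of ADM, went from 1.29 ± 0.444 to 8.97 ± 1.84 CPM in control cells (2.79, adjusted p = 9.5e-06) and fell from 6.94 ± 0.631 to 3.32 ± 0.652 CPM in depleted cells (-1.06, adjusted p = 0.020). Of the 14 VEGF and adrenomedullin ligands and receptors 11 were tested, with 3 higher in starved control cells (median -0.05) and 1 lower in starved depleted cells (median 0.21), against 34.5% and 7.18% of all genes called. The VEGF receptor KDR was at 1.92 to 4.06 CPM and the adrenomedullin receptor CALCRL, named after its values were seen, at 0.246 to 0.579 CPM in the group means. The VEGF co-receptors NRP1 and NRP2 were at 113 to 136 and 171 to 214 CPM.

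BNIP3 and BNIP3L (also NIX) encode outer mitochondrial membrane proteins that recruit the autophagy machinery to mitochondria. BNIP3L stood at 43.2, 56.0 and 43.3 CPM in fed and 132, 140 and 112 CPM in starved control cells. In depleted cells it stood at 50.3, 54.9 and 50.6 CPM with glucose and 63.4, 74.3 and 78.7 CPM without. All starved control libraries lay above all starved depleted ones. Its rise was 2.69-fold in control cells (1.43, SE 0.13, adjusted p = 1.1e-05) and 0.47 on the log2 scale in depleted cells (SE 0.13, adjusted p = 0.054; 0.010 with DESeq2). The interaction was -0.95 (SE 0.19, adjusted p = 0.0047).

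BNIP3 moved less. It stood at 120.1, 145 and 137 CPM in fed and 183, 205 and 173 CPM in starved control cells. Depleted cells held 127, 136 and 116 CPM with glucose and 153, 178 and 167 CPM without. Fed and starved libraries did not overlap in either kind of cell. The rise was 1.40-fold in control cells (0.48, SE 0.11, adjusted p = 0.0051). In depleted cells it was 1.32-fold (0.40, SE 0.11) at an adjusted p of 0.0504, and of 0.0063 with DESeq2. The interaction of -0.09 (SE 0.15, adjusted p = 0.77) had a 95% interval of -0.42 to 0.25.

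Of the 13 other mitophagy and autophagy receptors listed, 12 were tested; 6 rose and 1 fell in starved control cells (median 0.60), 1 rose in starved depleted cells (median 0.18), and 5 had a lower and 1 a higher interaction. Of all genes 34.5%, 7.18% and 17.3% were called in these contrasts. MAP1LC3B, an LC3 protein of the autophagosome membrane, went from 57.4 ± 6.68 to 340 ± 42.5 CPM in control cells (2.57, adjusted p = 6.9e-08) and from 67.5 ± 2.40 to 84.1 ± 5.46 CPM in depleted cells (0.32, adjusted p = 0.13). The receptor SQSTM1 went from 606 ± 45.3 to 2059 ± 77.7 CPM in control cells (1.76, adjusted p = 7.7e-07) and stood at 737 ± 65.1 and 832 ± 100 CPM in depleted cells (0.17, adjusted p = 0.36). OPTN was the receptor that rose in depleted cells (0.33). Without glucose 2 of the list were higher and 2 lower after depletion, against 28.7% of all genes called. With glucose, depletion gave 0 calls with edgeR, where 3.04% of all genes were called. It gave 5 at an unadjusted p under 0.05 and 0 with DESeq2.

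NDRG1 encodes a cytoplasmic stress-responsive protein studied as a metastasis suppressor. It was at 172, 139 and 183 CPM in fed and 553, 624 and 699 CPM in starved control cells. In depleted cells it was at 181, 195 and 181 CPM with glucose and 244, 274 and 201 CPM without. Every starved control library lay above every starved depleted library. The rise was 3.79-fold in control cells (1.92, SE 0.14, adjusted p = 1.9e-06), and 0.37 in depleted cells (SE 0.14, adjusted p = 0.14; 0.00066 with the slope covariate). All genes called in the latter contrast went from 1330 to 9013 with the covariate. The interaction was -1.55 (SE 0.20, adjusted p = 0.00031). Depletion in starved cells gave -1.38 (SE 0.14, adjusted p = 3.4e-05).

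ANKRD37 encodes a small ankyrin-repeat protein. It stood at 5.71, 3.59 and 4.81 CPM in fed and 12.5, 13.3 and 16.4 CPM in starved control cells. Depleted cells held 4.12, 4.95 and 5.34 CPM with glucose and 10.2, 10.5 and 8.30 CPM without. Both kinds of cell showed a rise without overlap between fed and starved libraries. It was 2.98-fold in control cells (1.58, SE 0.19, adjusted p = 6.7e-05) and 2.01-fold in depleted cells (1.01, SE 0.19, adjusted p = 0.0081). The interaction was -0.57 (SE 0.26, adjusted p = 0.17), and -0.58 with the covariate (adjusted p = 0.0055), where all genes called went from 3196 to 8655. After starvation ANKRD37 was lower in depleted than in control cells (-0.54, SE 0.18, adjusted p = 0.043). Leaving out any 1 of 10 libraries ended that call (adjusted p = 0.051 to 0.16), the exceptions being fed control replicates 1 and 2; it also ended with no low-count filter (-0.49, adjusted p = 0.098) and when the 3 outlying libraries were left out (-0.34, adjusted p = 0.053).

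CA9 encodes carbonic anhydrase 9, a cell surface enzyme that acidifies the surroundings of hypoxic cells and is a widely used marker of hypoxia. It stood at 8.40, 4.28 and 8.54 CPM in fed and 4.10, 6.23 and 9.005 CPM in starved control cells. In depleted cells it stood at 4.28, 5.03 and 5.19 CPM with glucose and 6.28, 5.58 and 4.15 CPM without. All 4 groups overlapped. Starvation gave -0.13 in control cells (SE 0.30, adjusted p = 0.78, 95% interval -0.79 to 0.54) and 0.14 in depleted cells (SE 0.31, adjusted p = 0.79, 95% interval -0.53 to 0.82). Without the 3 outlying libraries CA9 was lower in starved control cells (-0.72, adjusted p = 0.0050), in fed depleted cells (-0.82, adjusted p = 0.0077) and the interaction was 0.99 (adjusted p = 0.0071). Among its relatives, CA2 went from 0.361 ± 0.0523 to 3.38 ± 0.837 CPM in starved control cells (3.22, adjusted p = 3.7e-05) and CA12, named after its values were seen, from 0.706 ± 0.0783 to 0.196 ± 0.169 CPM (-1.90, adjusted p = 0.0053).

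**Figure D3:**
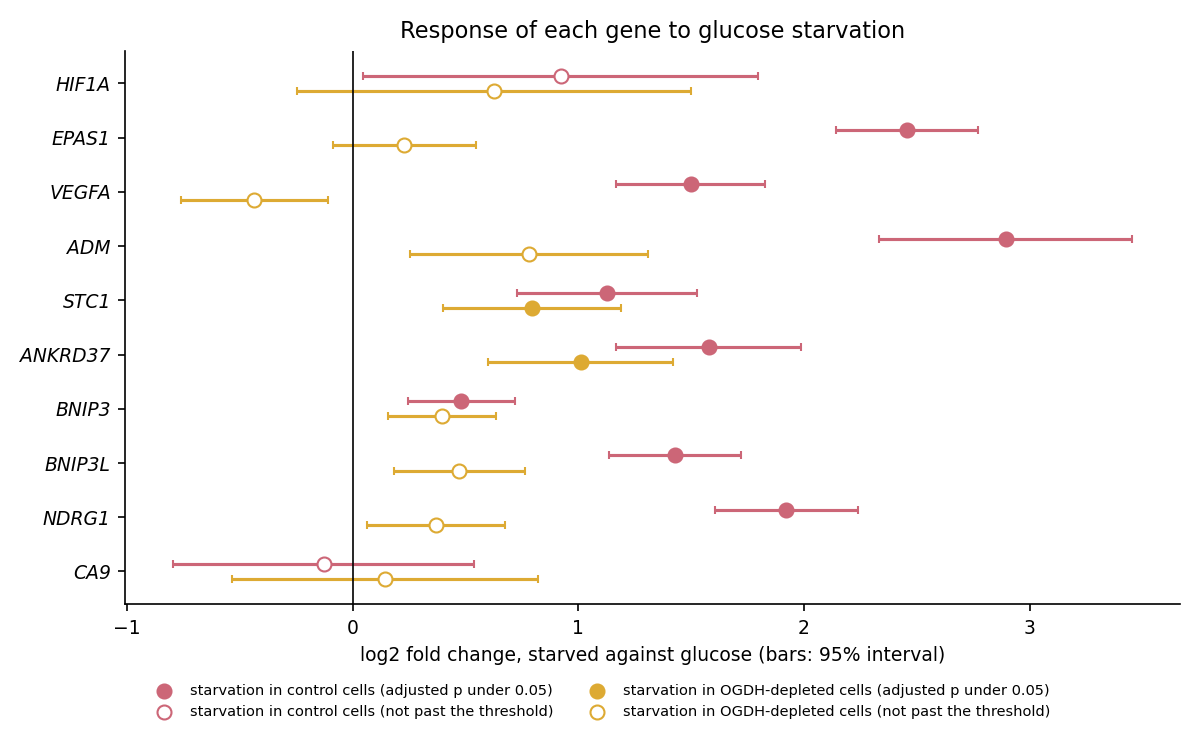
Log2 fold change of each of the 10 genes on glucose starvation (x axis, with 95% intervals of the edgeR fit) in control cells and in OGDH-depleted cells; filled points have an adjusted p under 0.05. EPAS1, VEGFA, ADM, BNIP3L and NDRG1 have intervals that do not meet, whereas those of HIF1A, STC1, ANKRD37, BNIP3 and CA9 overlap.

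Promoter windows show how the binding core is placed in genes that did and did not rise. RefSeq windows (build GRCh38.p14, 250 bases before to 50 after the start site) matched 6 of the 10 genes, HIF1A with 2 windows, and none was at hand for VEGFA, STC1, BNIP3L and NDRG1. The letters ACGTG and GCGTG were searched on both strands; CACGTG counts once on each strand. Of the 7 windows 6 held a match, against 48.4% of all 35116 windows of the same length, and 3 held ACGTG, against 21.4% of all. The shares over all windows are not matched for base composition. Windows with a match ranged from 62% GC (CA9) to 80.67% GC (BNIP3), and the HIF1A window without a match held 31.67% GC. BNIP3 had 6 matches and ANKRD37 had 3, a number reached by 10.1% of all windows, while HIF1A, EPAS1, ADM and CA9 had 1 each. The matches are shown here in capitals on the gene's strand, 5′ to 3′, for ANKRD37 (rose 2.98-fold in control cells), BNIP3 (1.40-fold), ADM (7.43-fold) and CA9 (not past the threshold).
ANKRD37 (chr4:185396673-185396690, + strand): gggctcCACGTGccagtg
ANKRD37 (chr4:185396692-185396708, + strand): ttgtgtACGTGcggccg
BNIP3 (chr10:131982017-131982072, - strand): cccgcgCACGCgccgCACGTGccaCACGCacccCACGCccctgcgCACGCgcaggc
ADM (chr11:10304966-10304982, + strand): gagcgcGCGTGgctgag
CA9 (chr9:35673904-35673920, + strand): ccaatgCACGTacagcc
A match describes letters only. Binding was not measured, and the part of these matches in the levels was not tested. The match of CA9 is an ACGTG on the opposite strand, 18 bases before its start site.

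Among 32 further targets outside the glycolytic chain 30 were tested. In starved control cells 8 rose and 4 fell, with a median of 0.12, a share called that lies near the 34.5% of all genes. BHLHE40, a transcriptional repressor of the clock, went from 33.4 ± 1.91 to 196 ± 8.62 CPM (2.55, adjusted p = 1.2e-08), and NFIL3, another repressor, from 6.55 ± 1.52 to 42.8 ± 5.50 CPM (2.71, adjusted p = 4.6e-07). PFKFB4, which sets the level of a glycolytic activator, fell from 121 ± 23.5 to 55.0 ± 12.2 CPM (-1.13, adjusted p = 0.0010). HILPDA, a lipid droplet protein named after its values were seen, fell in both kinds of cell (-0.94, adjusted p = 0.0095 in control and -0.92, adjusted p = 0.037 in depleted cells).

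In starved depleted cells 5 of these 30 rose and 1 fell (median 0.25), against 7.18% of all genes called. BHLHE40 rose by 1.03 (adjusted p = 7.8e-05) and NFIL3 by 0.71 (adjusted p = 0.027), each less than in control cells (interactions -1.52 and -1.9999, adjusted p = 1.9e-05 and 0.00016). KDM3A, a histone demethylase that itself uses 2-oxoglutarate, went the other way: it rose in depleted cells from 46.6 ± 2.36 to 79.5 ± 1.93 CPM (0.77, adjusted p = 0.00041) and stood at 70.8 ± 5.03 and 79.9 ± 3.11 CPM in control cells (0.18, adjusted p = 0.14; interaction 0.60, adjusted p = 0.0060). KDM3A was also lower in fed depleted than in fed control cells (-0.60, adjusted p = 0.0042).

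Of the 18 glycolytic targets, all tested, 2 rose and 2 fell in starved control cells (median -0.04), against 34.5% of all genes called. SLC2A3, a glucose transporter, went from 31.7 ± 1.16 to 190 ± 15.7 CPM (2.58, adjusted p = 1.2e-08) and HK2, a hexokinase, from 103 ± 14.3 to 199 ± 35.9 CPM (0.95, adjusted p = 0.00030). PGAM1 (-0.51, adjusted p = 0.00054) and LDHA, the lactate dehydrogenase (-0.32, adjusted p = 0.011), fell. The enzymes GAPDH, PGK1 and ENO1, named after their values were seen, stood at 0.01, -0.08 and -0.14, none past the threshold. In starved depleted cells SLC2A3 rose by 1.16 (adjusted p = 3.6e-05; interaction -1.42, adjusted p = 3.0e-05), and HK2 stood at -0.11 (adjusted p = 0.62; interaction -1.06, adjusted p = 0.0032).

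Genes of the integrated stress response, a program that slows translation and switches on stress genes, moved beside the 10 genes. Of 12 listed, 11 were tested: 10 rose in starved control cells (median 2.73), 2 in starved depleted cells (median -0.13), and 6 in fed depleted cells (median 0.72), and 10 had a lower interaction. Of all genes 34.5%, 7.18%, 3.04% and 17.3% were called in these contrasts. DDIT3 went from 13.2 ± 1.93 to 171 ± 24.0 CPM in control cells and from 15.1 ± 1.95 to 21.7 ± 2.97 CPM in depleted cells, and PPP1R15A from 193 ± 25.7 to 1777 ± 183 CPM and from 318 ± 3.66 to 774 ± 84.9 CPM. The part of this response in the levels of VEGFA, ADM, NDRG1 and the others was not tested.

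**Figure D4:**
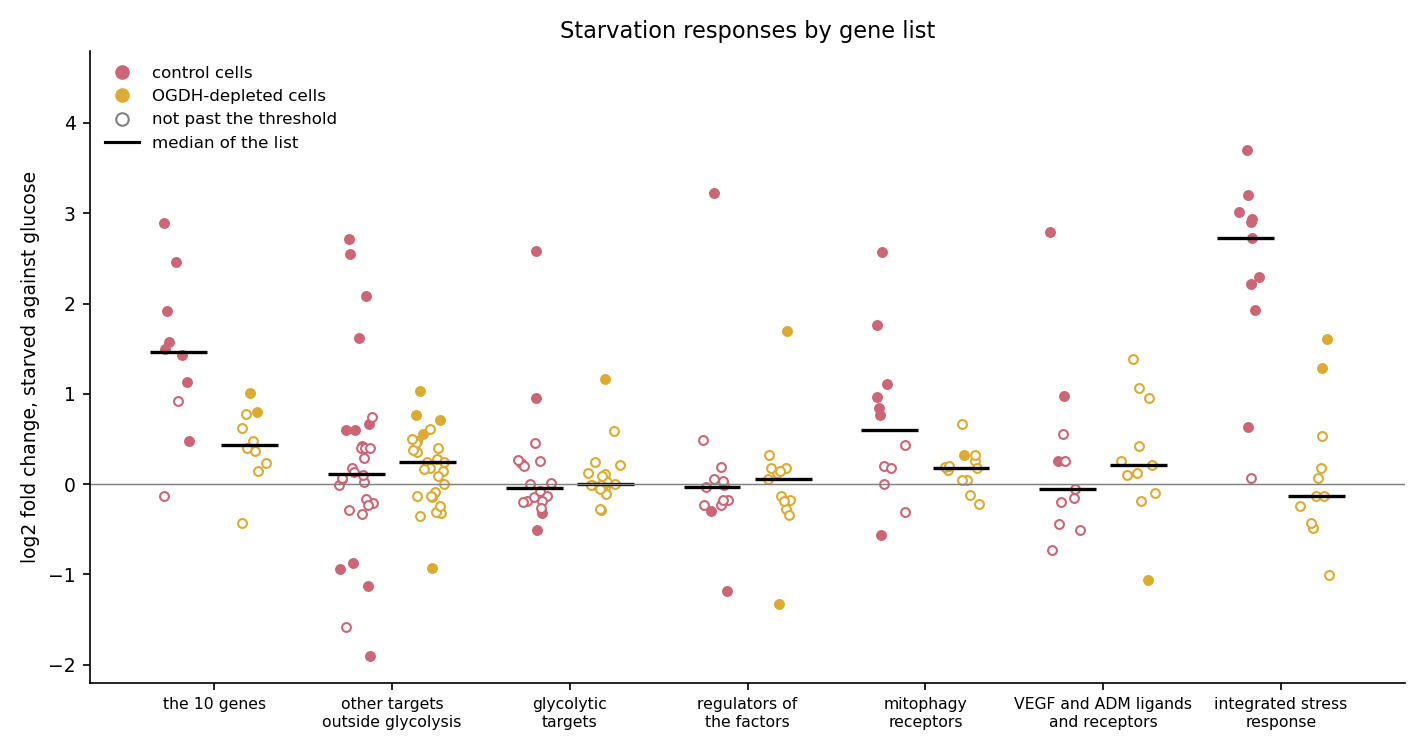
Log2 fold change on starvation (y axis) for every tested gene of 7 lists (x axis) in control cells and in OGDH-depleted cells; filled points have an adjusted p under 0.05, open points do not, and bars are list medians. The 10 genes have medians of 1.46 and 0.44 and the integrated stress response genes 2.73 and -0.13, while the medians of the glycolytic targets and the regulators stay within 0.06 of 0.

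The tested genes most alike in pattern to each of the 10 were found by Pearson correlation of log2 CPM over the 12 libraries, among genes averaging at least 5 CPM. The libraries share their groups and GC slopes, so the values describe likeness only. EPAS1 was most like SERP1 (r = 0.995), SEC11C (0.995) and NANS (0.993), and VEGFA most like NBPF9 (0.994), SESN2 (0.993) and SLC39A14 (0.992). HIF1A was most like CCDC6 (0.993), PPP1R12A (0.991) and TEX10 (0.990), ADM most like CEMIP (0.985), JMJD6 (0.984) and MAFF (0.983), and STC1 most like MDM4 (0.983), USPL1 (0.983) and ZBTB49 (0.982). For BNIP3L they were RND3, MXD1 and RNMT (0.995, 0.995 and 0.993), for NDRG1 LBH, NOCT and ETS2 (0.993, 0.993 and 0.990), and for ANKRD37 JUNB, ATF3 and GADD45B (0.980, 0.979 and 0.979). BNIP3 was most like KLHL24, ZBTB5 and ZBTB43 (0.981, 0.979 and 0.9703), and CA9 reached 0.950 at most, with HNRNPCP2. None of the 10 shared a nearest gene with another.

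Among the 10 genes the order of levels per kilobase in starved control cells ran from HIF1A at 122 ± 47.1 FPKM over STC1 at 53.3 ± 9.89, NDRG1 at 52.1 ± 6.09, BNIP3 at 46.2 ± 4.01, ADM at 42.4 ± 13.7 and BNIP3L at 30.8 ± 3.45 to VEGFA at 17.96 ± 2.65, ANKRD37 at 6.24 ± 0.911, CA9 at 4.03 ± 1.54 and EPAS1 at 2.33 ± 0.119 FPKM. Ranges of 1 SD overlapped between neighbours from STC1 to BNIP3L and between ANKRD37 and CA9. These levels use the summed exon length of all transcripts of a gene, 14431 bases for VEGFA and 1598 bases for CA9, which understates genes with many alternative exons.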

How the data were processed

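RNA sequencing counts of 12 libraries were used. The authors deposited raw fragment counts, grouped by gene name over exons with featureCounts 2.0.1 in paired mode, per the file headers. The recorded command sets no strand and no option for fragments with several places or genes, which that tool by default leaves out. The submitters' processing notes list Subread and hg38; which aligner was run is not given in the sources used here. The table's other value, exon length in bases, is as deposited by the authors.

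Samples were grouped by title. The low-count filter was filterByExpr of edgeR at a minimum count of 10 and minimum total of 15, passed by 18526 of 61209 names; TMM factors scaled the libraries. edgeR 4.0.16 (R 4.3.3) quasi-likelihood tests used 1 model with a mean per group over all 12 libraries; p-values were adjusted by Benjamini-Hochberg over all tested genes, at a threshold of 0.05. FPKM is CPM per kilobase of exon. GC content is the mean over a gene's GENCODE transcripts. The 10 genes, 5 contrasts, lists, named genes (up to 5 per list, by smallest adjusted p) and alternatives were chosen with earlier results of these data known. Not every gene that the naming rule takes is reported here. The 2 GC alternatives were chosen after seeing the data, and DESeq2 1.42.0 was another alternative.

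Replicate pairs differed beyond sampling noise (chi-square per degree of freedom 3.91 to 162). Whether replicates were separate cultures is not in the labels, so the spread behind each p-value is that between libraries and may be technical. As bulk counts, they cannot tell fewer expressing cells from less RNA per cell.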

Additional observations from a re-analysis of the deposited data

Results flagged for a closer look

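The starvation response differed between control and OGDH-depleted cells, by the interaction term of the edgeR fit, for 5 of the 10 genes. The interaction, as a log2 difference of the 2 responses, was -2.23 for EPAS1, -2.11 for ADM, -1.93 for VEGFA, -1.55 for NDRG1 and -0.95 for BNIP3L. Each kept its direction and its call under every alternative tried, leaving out each of the 12 libraries included. Of all 18526 tested genes, 1659 were called lower in the interaction.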

How the results depend on the processing

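Of 600 values of single genes with 1 library left out, 568 kept their direction and side of the threshold, 15 lost the call, 9 gained it and 8 turned; of 490 values under other alternatives, 421 kept both, 5 lost the call, 56 gained it and 8 turned. With 1 library left out, all genes called were 5037 to 7527 for starvation in control cells and 583 to 1959 in depleted cells. They were 172 to 632 for OGDH loss with glucose, 4030 to 6179 without and 2293 to 3319 for the interaction. In the same order the number of the 10 genes called was 8 to 9, 1 to 5, 0, 5 to 6 and 5. For starvation in depleted cells it was 4 with RLE size factors, 5 with DESeq2 or with only the compared groups, 7 without the 3 outlying libraries, 8 with the GC slope covariate and 6 with a GC bin offset, VEGFA being called lower in the last 3 and with only the compared groups; all genes called there went from 1330 to 1341, 2031, 1866, 3313, 9013 and 1565 in that order. For OGDH loss with glucose it was 1 with DESeq2, 5 without the outlying libraries, 5 with the slope covariate and 2 with the offset, where all genes called went from 563 to 1157, 2021, 6445 and 1338. For OGDH loss without glucose it was 7 without the outlying libraries and 8 with the covariate, all lower, where all genes called went from 5310 to 9874 and 10625. It was 5 there with upper-quartile factors, no low-count filter or only the compared groups, with 5378, 5199 and 3889 of all genes called. For the interaction it was 8 without the outlying libraries (7 lower, 1 higher), and 8 with the covariate and 7 with the offset, all lower. All genes called in the interaction went from 3196 to 8077, 8655 and 4551. The slope covariate is made from the same libraries and, like the removal of outlying ones, lowers the spread by construction: all-gene calls for starvation in control cells went from 6400 to 11433 and 11364.

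Values that turned sign were all uncalled in the reported fit. For OGDH loss with glucose HIF1A was 0.047 with the replicate block, 0.51 without the outlying libraries, 0.094 with the covariate and 0.16 with the offset, and -0.30 to 0.52 with 1 library left out. ANKRD37 there was -0.14 and -0.049 without the outlying libraries and with the offset, and -0.13 to 0.19 with 1 left out. CA9 was 0.0046 with the offset for starvation in control cells (-0.45 to 0.11 with 1 left out) and 0.17 without the outlying libraries for OGDH loss without glucose (-0.52 to 0.051). The causes were not tested.

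No consistent pairing by replicate number was seen: the correlation of deviations between same-numbered libraries was over 0.1 in 8 of 18 pairs and ranged from -0.79 to 0.75. These deviations also carry the GC slopes, so the correlations cannot tell whether a pairing lies beneath them. With the replicate block the counts called were 8, 3, 0, 5 and 5 in the order above. All genes called were then 6032, 1011, 342, 4931 and 2759. The block brought BNIP3 past the threshold for starvation in depleted cells (0.40, adjusted p = 0.041). It ended the call of ANKRD37 for OGDH loss without glucose (-0.53, adjusted p = 0.074).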
